A study of Mus musculus with 9 samples.

Results

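The genes described here are the 34 that encode the enzymes and transporters of glycolysis, lactate export and the pentose phosphate pathway, of 23471 genes in the RNA files. They were chosen by gene symbol from a fixed list of names, and all 34 were found. RNA was sequenced from 3 successive stages, granulocyte-macrophage progenitors (called GMP), progenitors committed to eosinophils (EoP) and the mature eosinophil (Eos), with 2 libraries of each, and the histone mark H3K4me3 was mapped by chromatin immunoprecipitation in 1 library of each. The marrow was pooled from Balb/c mice that had received no treatment. GMP were sorted as lineage-negative cells that carry CD34, high c-kit and CD16/32. EoP were lineage-negative, with CD34 and CD125 on the surface and c-kit at a low level. Eos were sorted as Siglec-F+ and CCR3+ cells. The RNA libraries of a cell type came from separate sorts, and nothing in the labels ties the sorts to separate animals, so p-values reflect only how far the sorts differed, which may be technical.

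Glycolysis takes up glucose through membrane transporters, traps it as glucose 6-phosphate by hexokinase, and splits it to pyruvate, which lactate dehydrogenase can turn into lactate for export through monocarboxylate transporters. The pentose phosphate pathway branches off at glucose 6-phosphate. Its oxidative arm makes NADPH, which the oxidase of granulocytes uses to make superoxide, and its non-oxidative arm exchanges sugars between ribose and glycolysis. Most steps have several isozymes encoded by different genes, and cells differ in which of them they use.

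The RNA libraries held 5226653 to 12088134 estimated counts, with both GMP libraries the shallowest. Levels are given as CPM, counts scaled to the size of the library and by TMM factors, which correct for a few genes that take a large share of it, and as the authors' RPKM, per length of transcript, wherever genes are compared with each other. Ccr3, in the Eos gate, had 0.894 to 1.57 CPM in GMP, 21.3 to 34.5 in EoP and 2272 to 2973 in Eos. The sum over the 10 genes of the eosinophil list, Ccr3 among them, went the other way between EoP and Eos. It was 1240 and 318 CPM in GMP, 241500 and 193000 in EoP and 21300 and 25070 in Eos. The list's granule protein gene Prg2 had 983 and 235 CPM in GMP, 176395 and 137064 in EoP and 4426 and 3321 in Eos. Its peroxidase gene Epx had 141 and 45.1 in GMP, 26969 and 23218 in EoP and 436 and 214 in Eos. Not all of the list fell with them. Il5ra had 436 and 399 CPM in EoP and 619 and 1179 in Eos, and Siglec5 had 282 and 262 in EoP and 308 and 415 in Eos. Markers of neutrophils were also abundant in Eos. The 18 found of the neutrophil list, none of them at 0 in all libraries, summed to 43920 and 39820 CPM in GMP, where the list's primary granule genes are themselves expressed, 2957 and 3163 in EoP and 56390 and 53180 in Eos. Retnlg alone, a resistin-like gene of neutrophils, had 20590 and 35159 CPM in Eos. The 10 monocyte and macrophage genes summed to 1534 and 1222 CPM in GMP, 369 and 353 in EoP and 3633 and 4171 in Eos, and the 8 mast cell and basophil genes to 1249 and 1212 in GMP, 1575 and 4344 in EoP and 255 and 128 in Eos, with none at 0 in all libraries. The part of other cells in any difference that involves Eos was not tested, and in these bulk samples fewer cells of a type and less RNA per cell cannot be told apart. The 12 genes of proliferation summed to 3637 and 3415 CPM in GMP, 5153 and 5775 in EoP and 2208 and 1116 in Eos. The part of dividing cells in any difference was not tested. The 15 genes of activation and dissociation stress differed within every cell type, with a sum of 641 and 3325 CPM in GMP, 5867 and 98.1 in EoP and 1441 and 5148 in Eos.

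Promoter sequences of 6 members are shown because their RNA levels or H3K4me3 peaks carry most of what follows. They are the 250 bases before a RefSeq start, 5′ to 3′ on the gene's own strand, from RefSeq on build GRCm38.p6, which is the assembly of mm10, the build of the deposited files. The Slc16a3 window lies inside the gene, before a start downstream of the first one listed. Capitals mark the letters ACGTG on either strand, the core of the element bound by hypoxia-inducible factor and part of the E-box CACGTG.
Hk3, chr13:55021386-55021635, minus strand: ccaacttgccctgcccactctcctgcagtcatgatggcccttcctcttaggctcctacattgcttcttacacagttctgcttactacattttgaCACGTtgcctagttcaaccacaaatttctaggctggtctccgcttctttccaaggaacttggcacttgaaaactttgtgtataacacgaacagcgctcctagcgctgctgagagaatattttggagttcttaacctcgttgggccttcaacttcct
Ldhb, chr6:142507958-142508207, minus strand: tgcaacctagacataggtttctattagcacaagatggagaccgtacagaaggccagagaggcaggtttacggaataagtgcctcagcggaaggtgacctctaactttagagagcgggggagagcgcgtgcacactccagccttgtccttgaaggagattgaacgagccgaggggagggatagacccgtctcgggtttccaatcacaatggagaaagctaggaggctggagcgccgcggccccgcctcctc
Slc2a1, chr4:119108495-119108744, plus strand: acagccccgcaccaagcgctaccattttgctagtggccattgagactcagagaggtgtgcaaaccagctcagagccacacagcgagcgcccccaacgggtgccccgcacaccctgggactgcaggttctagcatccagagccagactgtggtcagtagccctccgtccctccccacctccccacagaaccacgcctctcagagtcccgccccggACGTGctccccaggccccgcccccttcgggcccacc
Slc16a3, chr11:120948817-120949066, plus strand: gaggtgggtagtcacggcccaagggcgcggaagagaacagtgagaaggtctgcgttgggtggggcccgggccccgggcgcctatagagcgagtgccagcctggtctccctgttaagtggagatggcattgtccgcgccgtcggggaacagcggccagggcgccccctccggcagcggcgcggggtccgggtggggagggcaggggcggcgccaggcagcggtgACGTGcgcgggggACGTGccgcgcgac
Ldha, chr7:46845554-46845803, plus strand: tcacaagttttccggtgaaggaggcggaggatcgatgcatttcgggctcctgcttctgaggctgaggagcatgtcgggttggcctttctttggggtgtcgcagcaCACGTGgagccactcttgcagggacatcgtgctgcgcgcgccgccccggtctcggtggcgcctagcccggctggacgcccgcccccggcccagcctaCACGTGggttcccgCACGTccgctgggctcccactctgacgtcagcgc
Taldo1, chr7:141391910-141392159, plus strand: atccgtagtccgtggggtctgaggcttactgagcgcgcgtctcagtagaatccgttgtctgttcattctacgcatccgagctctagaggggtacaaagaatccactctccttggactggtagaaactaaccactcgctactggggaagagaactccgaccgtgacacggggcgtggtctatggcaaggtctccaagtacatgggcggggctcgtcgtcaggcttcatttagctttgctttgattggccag

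Ldha holds 5 matches of ACGTG, counting both strands of each CACGTG, while Ldhb and Taldo1 hold none. The promoter table gave 51 windows for 33 of the 34 members. ACGTG was present in 16 of the 51 windows (31.4%), which belong to 12 members, against 16.6% of all 32851 promoters of the same length. CACGTG, which contains ACGTG on both strands, was in 9.8% of member windows and 6.02% of all promoters. GGGCGG, the GC box, was in 52.9% of member windows and 32.7% of all, and TATAAA in 3.92% and 12.4%, each searched on both strands. Windows of 1 gene can overlap, so these shares are descriptions and no test was made.

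In EoP against GMP, 4 members rose and 5 fell, which is 26.5% of the 34, beside 26.6% of the 14324 genes tested (called at an adjusted p under 0.05 by the quasi-likelihood test of edgeR with Benjamini-Hochberg adjustment). The genes that rose were Slc2a3, Slc16a3, G6pdx and Pgk1, and those that fell were Ldhb, Hk3, Pdk1, Pfkl and Eno2. The background was 9.49% of genes higher and 17.1% lower. The median log2 fold change was 0.12 over the members and −0.07 over all genes tested. All 34 members passed the filter on low counts in every comparison. These counts depended on single libraries: the 4 became 0 without GMP replicate 1, 1 without GMP replicate 2, 1 without EoP replicate 1 and 7 without either Eos library, and the 5 became 3 without EoP replicate 1 and 2 without any other EoP or GMP library. The share of all genes called likewise fell without any 1 GMP or EoP library and rose without either Eos library. Library size alone gave 1 higher and 9 lower and ended the calls of Slc16a3, G6pdx and Pgk1. Over all 14324 genes it gave 602 higher and 3617 lower, beside 1359 and 2453 with TMM factors. Upper quartile factors gave 3 and 6 members, and 950 and 2815 of all genes. The call of Pgk1 also ended with those factors, with DESeq2 and with a filter of 50 counts in 2 libraries, that of Eno2 with DESeq2, and that of Pfkl with limma on RPKM.

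In Eos against EoP, 8 members rose and 3 fell (32.4%), beside 36.8% of all genes, with 19.1% higher and 17.7% lower. Slc2a3, Ldhb, Slc2a1, Slc16a3, Taldo1, Hk3, Hk2 and Aldoa rose, and Tpi1, Pfkp and Ldha fell. The median log2 fold change was −0.13 over the members and 0.02 over all genes. The 3 falls became 1 without EoP replicate 2 or either GMP library, 0 without EoP replicate 1 and 7 without Eos replicate 1. Fewer of all genes were also called lower without any 1 GMP or EoP library, and more without Eos replicate 1. DESeq2 size factors gave 11 higher and 1 lower, with Pfkp and Ldha no longer called. Over all genes they gave 3070 higher and 2242 lower, beside 2733 and 2540 with TMM factors. Pfkp was also lost with library size alone, DESeq2, limma-voom and the stricter filter, and Ldhb with limma on RPKM.

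In Eos against GMP, across both steps, 11 members were higher and 10 lower (61.8%), beside 54.5% of all genes, with 22.7% higher and 31.8% lower. The higher members were Slc2a3, Slc16a3, Taldo1, Slc2a1, Hk2, G6pdx, Gpi1, Pfkfb4, Aldoa, Pgd and Pfkfb3. The lower members were Eno2, Pfkm, Pdk1, Slc16a1, Ldhb, Pgls, Pfkl, Gapdh, Pfkp and Tpi1. The median was −0.01 over the members and −0.39 over all genes. The 10 became 2 without GMP replicate 2, and library size alone gave 6 higher and 13 lower, without Gpi1, Aldoa, Pfkfb4, Pfkfb3 and Pgd. Pfkfb3 and Pgd were also lost with upper quartile factors and, like Pfkfb4, with limma on RPKM, and Eno2 with DESeq2. Of all genes, fewer were also called lower without GMP replicate 2. Library size alone called 2019 of all genes higher and 6776 lower, beside 3253 and 4557 with TMM factors. The 3 comparisons share libraries, and their values are given side by side below.

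**Figure D1:**
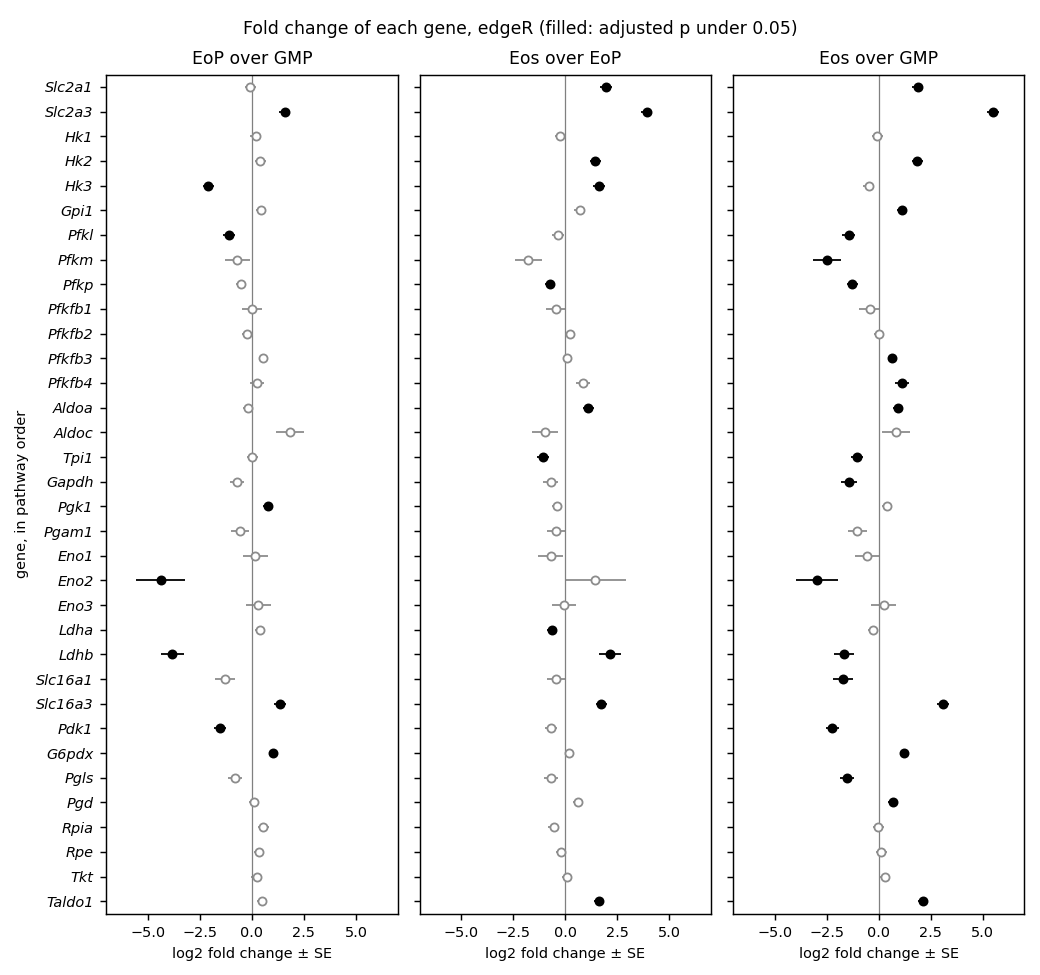
Log2 fold change of each of the 34 genes, with its standard error from edgeR, in EoP over GMP (left), Eos over EoP (middle) and Eos over GMP (right). Filled points have an adjusted p under 0.05. Slc2a3 lies furthest to the right in both comparisons with Eos, at 3.91 and 5.48.

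Both glucose transporter genes were higher in Eos than in either progenitor. Slc2a3, which encodes the high-affinity glucose transporter GLUT3 (chr6:122727809-122742745), had 19.1 and 21.3 CPM in GMP, 49.2 and 70.5 in EoP and 853 and 946 in Eos. No library of a later stage fell within the range of an earlier one. It rose 2.96-fold in EoP over GMP (log2 fold change 1.57, SE 0.26, adjusted p = 0.00326 in edgeR), a call lost without GMP replicate 1 (adjusted p = 0.0566). It rose 15.0-fold in Eos over EoP (3.91, SE 0.27, adjusted p = 1.85e-05) and 44.5-fold in Eos over GMP (5.48, SE 0.30, adjusted p = 2.11e-06), and both calls stayed with each library left out. Slc2a1, which encodes the widespread transporter GLUT1 (chr4:119108745-119137329), had 31.8 and 27.1 CPM in GMP, 24.3 and 31.5 in EoP and 84.5 and 131 in Eos. Libraries of EoP and GMP overlapped (−0.08, SE 0.27, adjusted p = 0.871) and both Eos libraries lay above them. Slc2a1 rose by 1.95 in Eos over EoP (SE 0.28, adjusted p = 0.000736) and by 1.87 in Eos over GMP (SE 0.28, adjusted p = 0.000578), again with each library left out.

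Per length of transcript, Slc2a1 was the larger of the pair in GMP and Slc2a3 in both later stages. The share of Slc2a3 in their summed RPKM was 28.1% and 33.8% in GMP, 56.8% and 59.2% in EoP and 86.8% and 82.4% in Eos. These ranges did not overlap. With 2 libraries against 2 an exact two-sided permutation test cannot go below p = 0.333, so no share was tested.

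Hexokinase genes traced 3 different courses. Hk3, which encodes an isozyme typical of myeloid cells (chr13:55005985-55021385), had 167 and 129 CPM in GMP, 35.6 and 33.8 in EoP and 132 and 80.0 in Eos. It was low in both EoP libraries, and the Eos and GMP ranges overlapped. Hk3 fell by 2.09 in EoP over GMP (SE 0.28, adjusted p = 0.00111 in edgeR) and rose by 1.61 in Eos over EoP (SE 0.28, adjusted p = 0.00189). Both calls stayed with each library left out. Eos did not differ from GMP at the threshold (−0.48, SE 0.27, adjusted p = 0.148), but was called lower with upper quartile factors, library size alone and without Eos replicate 1. Hk2, the isozyme that glucose demand and growth signals induce in many tissues, had 56.0 and 64.5 CPM in GMP, 68.0 and 92.1 in EoP and 182 and 254 in Eos. Its Eos libraries stood above all others. Hk2 rose by 1.44 in Eos over EoP (SE 0.25, adjusted p = 0.0021) and by 1.85 in Eos over GMP (SE 0.26, adjusted p = 0.000385), and it did not pass in EoP over GMP (0.41, adjusted p = 0.26). Hk1, found in most cells, ranged from 47.1 to 73.9 CPM over the 6 libraries, with overlapping ranges in every comparison and adjusted p from 0.471 to 0.839.

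The leading hexokinase was Hk3 in GMP, at 70.7% and 60.4% of the family's RPKM. In EoP no isozyme held more than 42.7%, with Hk1 first in replicate 1 and Hk2 first in replicate 2. In Eos, Hk3 led in replicate 1 at 47.2% and Hk2 in replicate 2 at 54.5%. The summed CPM of the 3 genes was 275 and 262 in GMP, 178 and 188 in EoP and 381 in both Eos libraries.

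The Hk3 locus has 2 listed starts 566 bases apart. Transcripts from the upstream start had 1067 and 437 estimated counts in GMP, 302 and 159 in EoP and 656 and 216 in Eos. Those from the downstream start had 312 and 426 in GMP, 0 and 235 in EoP and 657 and 468 in Eos. This split differed between libraries of the same cell type.

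**Figure D2:**
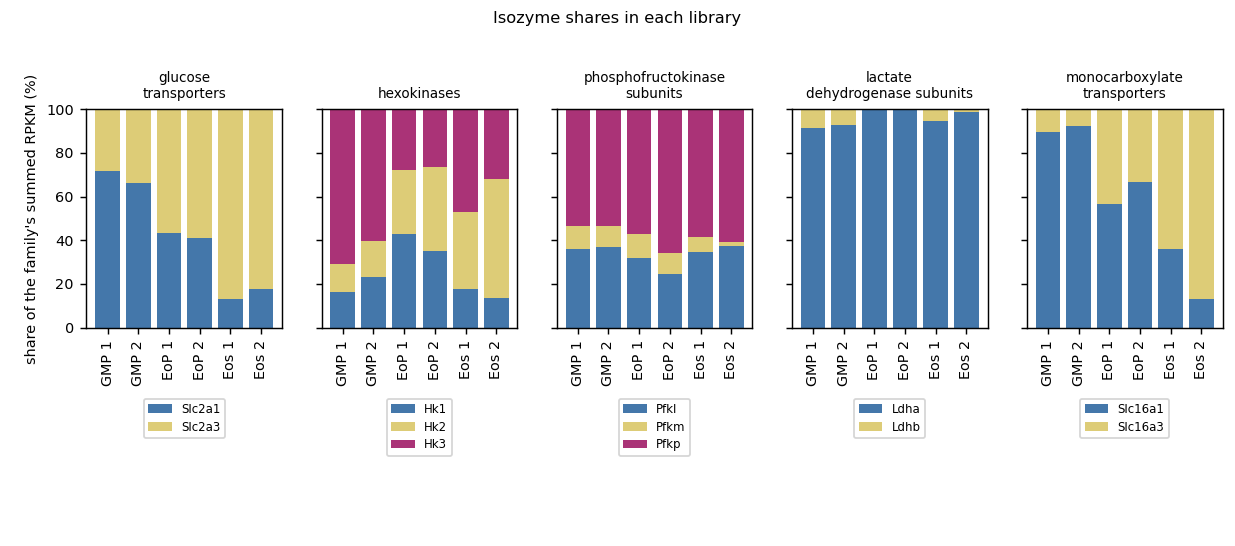
Share of each isozyme in the summed RPKM of its family, in percent, for each of the 6 libraries, numbered by replicate. Slc2a3 and Slc16a3 take a larger share in EoP and a still larger one in Eos than in GMP, Hk3 is largest in GMP, and Ldhb is nearly absent in EoP.

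Downstream of hexokinase, Gpi1 and Aldoa were higher and all 3 phosphofructokinase genes lower in Eos than in GMP. Gpi1, which encodes glucose 6-phosphate isomerase, had 460 and 481 CPM in GMP, 712 and 565 in EoP and 947 and 1110.4 in Eos. Its level stood higher in each later stage without overlap. The difference passed only in Eos over GMP (1.13, SE 0.25, adjusted p = 0.00478 in edgeR), and Eos over EoP had an adjusted p of 0.0517, called with DESeq2 or its size factors, limma-voom, either other filter and without Eos replicate 1. Aldoa, the aldolase of most tissues with 98.8% to 99.8% of aldolase RPKM in the 6 libraries, had 308 and 397 CPM in GMP, 339 and 286 in EoP and 600 and 752 in Eos. GMP and EoP overlapped below Eos. Aldoa rose by 1.11 in Eos over EoP (SE 0.25, adjusted p = 0.00716) and by 0.94 in Eos over GMP (SE 0.25, adjusted p = 0.011). The first call was lost without EoP replicate 2 (adjusted p = 0.0773) and the second without GMP replicate 1 (adjusted p = 0.111).

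Phosphofructokinase commits sugar to glycolysis, and its 3 subunit genes had at most 71.8 CPM in any library. Pfkp, the platelet-type subunit, had 50.3 and 71.8 CPM in GMP, 40.2 and 44.1 in EoP and 28.5 and 22.2 in Eos. Pfkl, the liver-type subunit, had 31.5 and 46.3 CPM in GMP, 21.0 and 15.3 in EoP and 15.8 and 12.7 in Eos, and Pfkm, the muscle-type subunit, had 7.02 and 9.39 CPM in GMP, 5.31 and 4.80 in EoP and 2.41 and 0.468 in Eos. All 3 were highest in both GMP libraries. In Eos over GMP, Pfkp fell by 1.26 (SE 0.26, adjusted p = 0.00325), Pfkl by 1.44 (SE 0.30, adjusted p = 0.00371) and Pfkm by 2.47 (SE 0.67, adjusted p = 0.0117). Each of these calls was lost without GMP replicate 2 (adjusted p = 0.0703, 0.0716 and 0.0819). Without Eos replicate 1 the log2 fold change of Pfkm was −4.08, and without Eos replicate 2 it was −1.73. Pfkl also fell in EoP over GMP (−1.10, adjusted p = 0.0222), lost without any 1 of the 4 compared libraries (adjusted p up to 0.285), and Pfkp in Eos over EoP (−0.73, adjusted p = 0.047), a call that stayed only without Eos replicate 1. Pfkp stayed the most abundant subunit, at 53.3% to 65.6% of the family's RPKM.

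The PFKFB enzymes set the level of fructose 2,6-bisphosphate, an activator of phosphofructokinase. Pfkfb3, the most abundant at 48.2% to 59.7% of their RPKM, had 71.4 and 62.6 CPM in GMP, 88.7 and 106 in EoP and 104 and 106 in Eos. Both GMP libraries were below the rest. Pfkfb3 rose by 0.65 in Eos over GMP (SE 0.21, adjusted p = 0.0262 in edgeR) and Pfkfb4 by 1.12 (SE 0.34, adjusted p = 0.0196). Each call was lost without GMP replicate 2 (adjusted p up to 0.102 and 0.0901), that of Pfkfb3 also without GMP replicate 1 and that of Pfkfb4 also without Eos replicate 1. Pfkfb1 and Pfkfb2 passed in no comparison in edgeR.

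**Figure D3:**
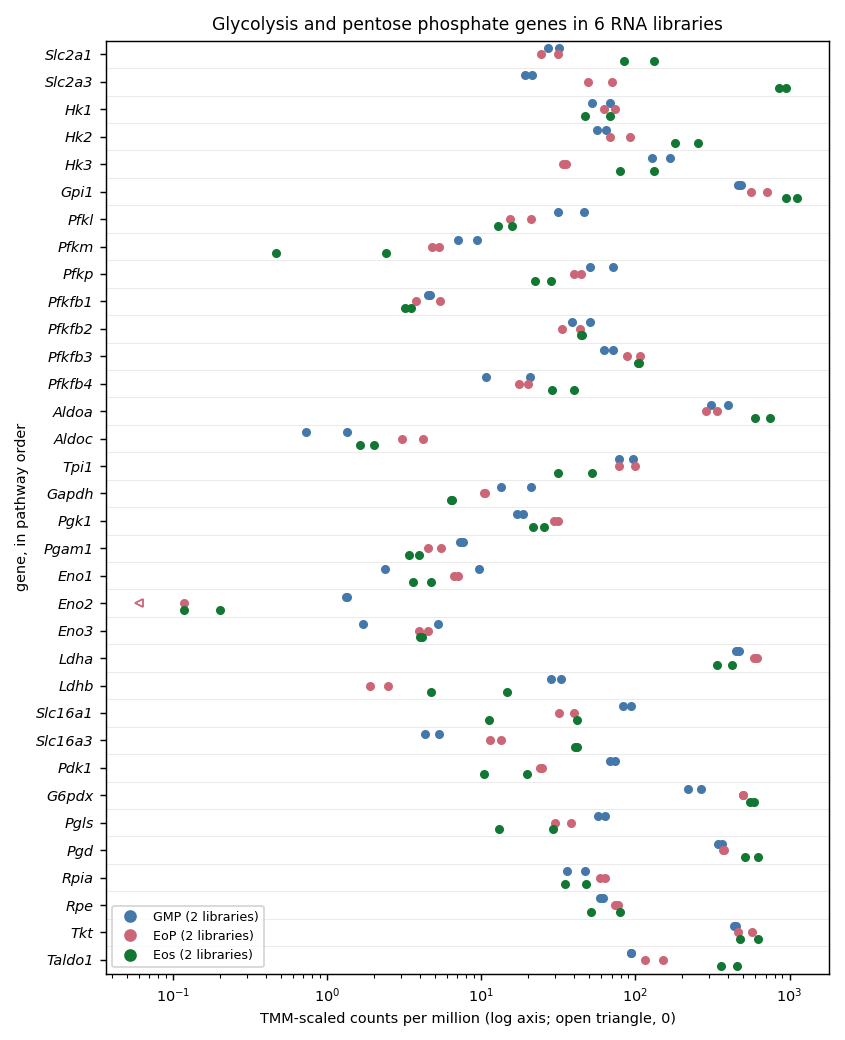
CPM of the 34 genes on a log axis, in pathway order, with 1 point for each of 2 libraries in GMP, EoP and Eos. Slc2a3 spans from 19.1 CPM in GMP to 946 in Eos, Hk3 and Ldhb are lowest in EoP, and the genes from Gapdh to Eno3 lie at or under 31.6 CPM.

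The genes of the later steps of glycolysis were measured with few reads. Gapdh had 55 to 141 counts a library and Eno1 16 to 80. The RefSeq table names 7 further loci after Tpi1, 5 after Aldoa, 3 each after Gapdh, Pgk1 and Ldha, 2 after Pgam1, and 1 each after Ldhb and G6pdx. Reads shared with such near-identical copies may be split or lost, so levels of these genes are uncertain, those of Aldoa, Ldha, Ldhb and G6pdx included. In the case of Eno1, a transcript of Gm5506 (Eno1b in RefSeq) is listed over the same locus on chromosome 4 and took 421 to 620 counts there. Together the Eno1 and Gm5506 lines of that locus gave 66.5 and 66.3 CPM in GMP, 70.9 and 58.5 in EoP and 67.0 and 52.9 in Eos, with overlapping ranges in all 3 comparisons.

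Within that limit, Tpi1, which encodes triose phosphate isomerase, had 77.7 and 97.0 CPM in GMP, 99.2 and 78.1 in EoP and 52.5 and 31.6 in Eos. Both Eos libraries were below the others. It fell by 1.07 in Eos over EoP (SE 0.28, adjusted p = 0.0144 in edgeR), lost without EoP replicate 1 (adjusted p = 0.0991), and by 1.05 in Eos over GMP (SE 0.28, adjusted p = 0.0114), lost without GMP replicate 2 (adjusted p = 0.149). Gapdh, for glyceraldehyde 3-phosphate dehydrogenase, had 13.3 and 21.0 CPM in GMP, 10.5 and 10.4 in EoP and 6.33 and 6.43 in Eos. It fell by 1.42 in Eos over GMP (SE 0.36, adjusted p = 0.00924), lost without GMP replicate 2 (adjusted p = 0.14). Pgk1, for phosphoglycerate kinase, had 18.5 and 17.0 CPM in GMP, 31.6 and 29.7 in EoP and 21.6 and 25.5 in Eos. EoP stood highest. Pgk1 rose in EoP over GMP (0.79, SE 0.25, adjusted p = 0.0412), which was lost without any 1 of the 4 compared libraries (adjusted p up to 0.177). Pgam1, Eno1, Eno3 and Aldoc passed in no comparison in edgeR, and their highest level was 9.68 CPM. Aldoc was called higher in EoP over GMP with limma-voom and with the compared groups alone. Pgam1 was called lower in both comparisons with Eos by limma on RPKM, and in Eos over GMP also with upper quartile factors and library size alone.

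Eno2, the neuronal enolase, had 20 counts over both GMP libraries, 1 over both EoP libraries and 3 over both Eos libraries. Its normalised ratio was 0.0372 in EoP over GMP (95% interval 0.000897 to 0.232) and 0.121 in Eos over GMP (0.0231 to 0.409), intervals of counting error only. EdgeR called both lower (adjusted p = 0.0212 and 0.0313), but without GMP replicate 1 it did not pass the filter. The first call was lost without GMP replicate 2 or either EoP library, and the second without any of the other 5 libraries (adjusted p up to 0.206 and 0.246). In EoP over GMP the fitted log2 fold change of −4.38 became −6.59 without EoP replicate 1 and −3.18 without EoP replicate 2.

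At the lactate step, the B subunit gene nearly disappeared in EoP. Ldhb, whose subunit gives the heart-type enzyme (chr6:142490249-142507943), had 33.0 and 28.3 CPM in GMP, 2.48 and 1.89 in EoP and 14.8 and 4.68 in Eos. EoP lay below Eos and Eos below GMP, with the Eos libraries far apart. Ldhb was 14.1-fold lower in EoP than in GMP (−3.82, SE 0.54, adjusted p = 0.00145 in edgeR), a call that stayed with each library left out. It rose by 2.17 in Eos over EoP (SE 0.53, adjusted p = 0.0101), lost without EoP replicate 2 (adjusted p = 0.0604). Eos remained lower than GMP (−1.65, SE 0.47, adjusted p = 0.0151), lost without GMP replicate 1 or GMP replicate 2 (adjusted p up to 0.09). The size of both differences rested on which Eos library was kept: without Eos replicate 1 the log2 fold change was 1.10 over EoP and −2.70 over GMP, and without Eos replicate 2 it was 2.77 and −1.03. Ldha, whose subunit gives the muscle-type enzyme, had 449 and 469 CPM in GMP, 614 and 590.5 in EoP and 338 and 424 in Eos. EoP was highest. Ldha fell by 0.66 in Eos over EoP (SE 0.23, adjusted p = 0.0471), a call that stayed only without Eos replicate 2 (adjusted p up to 0.196). Per length, Ldha had the highest counted level of the 34 genes in GMP and EoP, at a mean of 95.7 and 155 RPKM. It was the fifth in Eos at 68.0 RPKM, where Aldoa led at 134 RPKM. These ranks are uncertain, since copies may take reads of other members, as described above. Ldhb made up 8.53% and 7.05% of the pair's RPKM in GMP, 0.507% and 0.402% in EoP and 5.28% and 1.38% in Eos.

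The monocarboxylate transporter genes moved in opposite directions in Eos over GMP. Slc16a3, which encodes MCT4, a transporter of cells with high lactate output (chr11:120948484-120959000), had 5.33 and 4.32 CPM in GMP, 13.3 and 11.3 in EoP and 41.6 and 40.6 in Eos. No ranges overlapped. It rose by 1.34 in EoP over GMP (SE 0.29, adjusted p = 0.0107 in edgeR), lost without EoP replicate 1 or either GMP library (adjusted p up to 0.0716). It rose by 1.74 in Eos over EoP (SE 0.27, adjusted p = 0.00126) and by 3.08 in Eos over GMP (SE 0.30, adjusted p = 4.31e-05), with each library left out as well. Slc16a1, which encodes MCT1, a transporter that carries lactate in both directions, had 82.8 and 93.6 CPM in GMP, 31.8 and 40.1 in EoP and 42.0 and 11.2 in Eos. Both GMP libraries were above the rest. Its fall passed in Eos over GMP (−1.72, SE 0.47, adjusted p = 0.0123), lost without GMP replicate 2 (adjusted p = 0.0855), and its log2 fold change was −2.96 without Eos replicate 1 and −1.04 without Eos replicate 2. EoP over GMP did not pass in edgeR (−1.29, SE 0.46, adjusted p = 0.065), but was called lower with DESeq2, limma-voom, upper quartile factors, library size alone, no filter, the compared groups alone and without either Eos library. Slc16a3 took 10.5% and 7.80% of their RPKM in GMP, 43.4% and 33.5% in EoP and 64.0% and 86.7% in Eos.

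Pdk1, a kinase that shuts off pyruvate dehydrogenase and so the entry of pyruvate into mitochondria, had 74.1 and 67.9 CPM in GMP, 24.6 and 24.0 in EoP and 19.8 and 10.4 in Eos. Its libraries stood in 3 separate ranges. Pdk1 fell by 1.55 in EoP over GMP (SE 0.30, adjusted p = 0.00653 in edgeR), lost without EoP replicate 2 or either GMP library (adjusted p up to 0.0662). In Eos over GMP it fell by 2.23 (SE 0.31, adjusted p = 0.000364), a call that stayed with each library left out.

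In the oxidative arm of the pentose phosphate pathway, both NADPH-producing dehydrogenases were higher and the lactonase between them lower in Eos than in GMP. G6pdx, the X-linked gene of glucose 6-phosphate dehydrogenase (chrX:74409486-74429161), had 267 and 220 CPM in GMP, 497 and 499.7 in EoP and 553 and 589.8 in Eos. EoP and Eos lay above GMP. G6pdx rose by 1.03 in EoP over GMP (SE 0.23, adjusted p = 0.0109 in edgeR), lost without EoP replicate 1 or either GMP library (adjusted p up to 0.0837), and by 1.23 in Eos over GMP (SE 0.23, adjusted p = 0.002), which stayed with each library left out. The gene Ikbkg lies over G6pdx on the opposite strand, and the sources used here do not say whether counting used strand, so reads of the 2 genes may be mixed. The same limit holds for other members that overlap a gene on the opposite strand. These are Hk1 (9260 bases), Pfkfb2 (4731), Pfkm (981), and Rpe, Pfkp, Hk3 and Tpi1 (at most 563). Pgd, for 6-phosphogluconate dehydrogenase, had 366 and 342 CPM in GMP, 372 and 375 in EoP and 625 and 516 in Eos. Eos stood above both. It rose by 0.69 in Eos over GMP (SE 0.23, adjusted p = 0.0262), lost without EoP replicate 1 or either GMP library (adjusted p up to 0.11). Pgls, for 6-phosphogluconolactonase, had 63.8 and 57.2 CPM in GMP, 38.2 and 30.2 in EoP and 29.0 and 13.1 in Eos. It stood lower in each later stage, and fell by 1.52 in Eos over GMP (SE 0.34, adjusted p = 0.0054), which stayed with each library left out and was −2.19 without Eos replicate 1.

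Of the non-oxidative arm, Taldo1 changed and the other members passed in no comparison in edgeR. Taldo1, which encodes transaldolase (chr7:141392160-141402976), had 93.9 and 93.3 CPM in GMP, 151 and 115 in EoP and 358 and 456 in Eos. No ranges overlapped. Taldo1 rose 3.07-fold in Eos over EoP (1.62, SE 0.24, adjusted p = 0.00089 in edgeR) and 4.35-fold in Eos over GMP (2.12, SE 0.24, adjusted p = 0.000124), each with every library left out in turn. EoP over GMP did not pass (0.50, SE 0.23, adjusted p = 0.143), but was called higher with limma on RPKM and without either Eos library. Tkt, for transketolase, which acts beside it, had 435 and 453 CPM in GMP, 573 and 465 in EoP and 629 and 474 in Eos, with adjusted p from 0.295 to 0.801. Rpia and Rpe, for the enzymes that interconvert pentose phosphates, ranged from 34.8 to 63.6 and from 51.6 to 79.9 CPM. Rpia was called lower in Eos over EoP with limma on RPKM and without Eos replicate 1, and higher in EoP over GMP with the compared groups alone and without either Eos library. Per length, Taldo1 was the seventh of the 34 genes in GMP and EoP (24.9 and 43.3 RPKM) and the third in Eos (93.2 RPKM). These ranks carry the same limit as those of Ldha.

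H3K4me3, a histone mark found at active promoters, gave a promoter peak at 28 members in GMP, 25 in EoP and 27 in Eos. Of all 23471 genes, 45.1%, 37.4% and 39.6% had one, beside 82.4%, 73.5% and 79.4% of the 34. All 34 members passed the filter on low RNA counts, but only 14324 of the 23471 genes did. The part of expression in this contrast was not tested. Each cell type has 1 library and the EoP list is the shortest, at 19816 peaks beside 30645 in GMP and 33847 in Eos, so differences between lists have no replicate check. In all 3 lists 25 of the 34 members had a peak, beside 35.9% of all genes. Among the 25 were Slc2a3, Slc2a1, Slc16a3 and Taldo1. The promoters of Slc2a3 and Slc16a3 carried a peak in GMP, where their RNA had at most 21.3 and 5.33 CPM.

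The 3 members whose peak was missing from a list were Hk3, Eno2 and Ldhb. Hk3 and Eno2 had one in GMP and Eos only, as did 2.35% of all genes. Ldhb had one in GMP only, as did 5.69% of all genes. Hk3 had 4 promoter peaks covering 1029 bases in GMP, none in EoP and 2 covering 365 bases in Eos. The 2 Eos peaks were weak, with pileup signals of 3 and 6. Their −log10 q-values were 0.71 and 3.77, where the lowest in the Eos list was 0.705. Hk3 RNA was also lowest in EoP. Its peaks lay inside the gene, downstream of the sequence printed above, which none of them touched. Ldhb had 1 peak of 672 bases in GMP (chr6:142507540-142508211), which covered all 250 bases of the printed Ldhb promoter, and none in EoP or Eos. Its strongest summit had a fold enrichment of 7.67 in the authors' list and ranked in the top 31.2% there. Eno2 had a peak of 496 bases in GMP, none in EoP and 1 of 136 bases in Eos. That Eos peak had a pileup signal of 3 and was not among the 19816 Eos peaks ranked first by q-value. All 3 genes still had no peak in EoP when any peak within 3000 bases of a start was counted.

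No list had an annotated promoter peak for 6 members: Hk1, Aldoc, Eno1, Eno3, Pfkfb1 and G6pdx. Of these, Hk1, Eno1 and G6pdx had in every list a peak within 1000 bases of a start that the files annotate to another region or gene. Where present, peaks covered a median of 1160.5 bases per member in GMP, 831 in EoP and 875 in Eos, beside 873, 727 and 714 over all genes with a promoter peak. For Slc2a3 the Eos peak covered the most bases, 1281, beside 686 for GMP and 650 for EoP. That Eos peak had the lowest fold enrichment, 4.32, beside 7.54 for EoP and 5.86 for GMP. Length and enrichment thus differed in direction, and each value rests on 1 library.

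**Figure D4:**
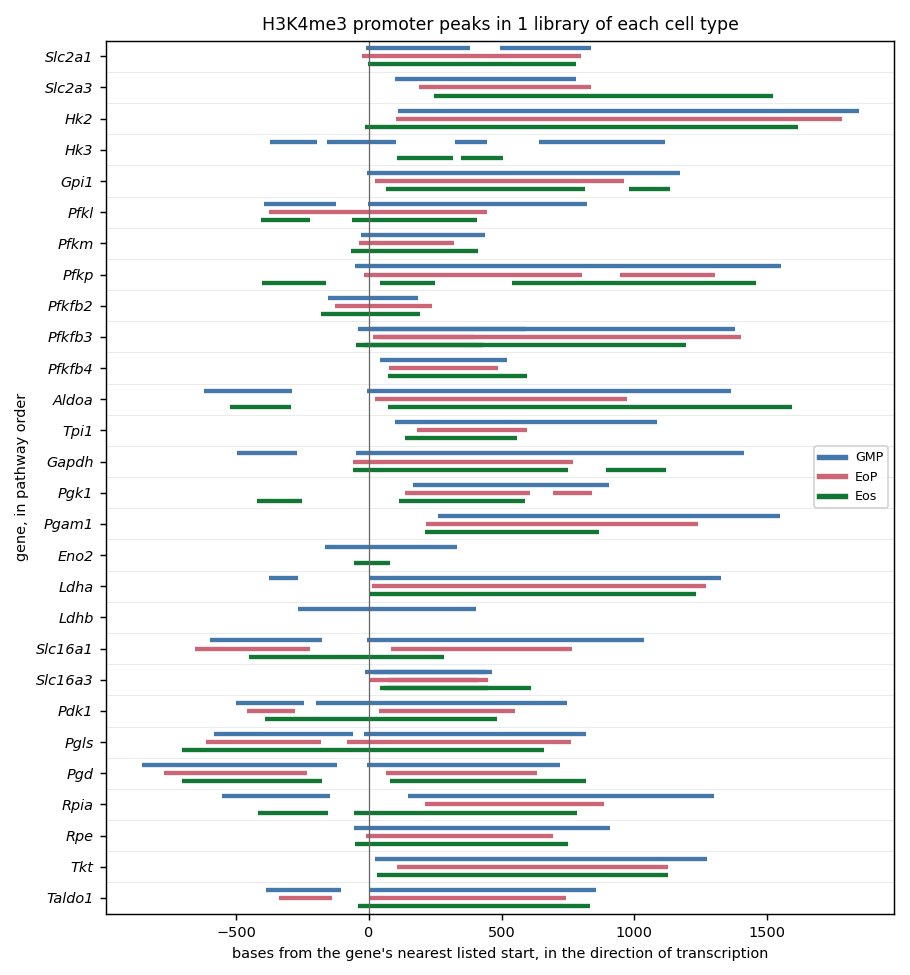
Span of the H3K4me3 promoter peaks of the 28 members that have one, in bases from the nearest listed start, with 1 library each for GMP, EoP and Eos. Hk3 and Eno2 lack an EoP peak, and Ldhb has a peak in GMP only.

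Genes around the pathway were read from lists chosen with earlier results known. Their counts stand beside the shares of all genes given above, 9.49% higher and 17.1% lower in EoP over GMP, 19.1% and 17.7% in Eos over EoP, and 22.7% and 31.8% in Eos over GMP. Of 21 tested genes for other isozymes and transporters, 2 rose and 5 fell in EoP over GMP, 4 rose and 4 fell in Eos over EoP, and 4 rose and 6 fell in Eos over GMP. These are 9.52% and 23.8%, 19.0% and 19.0%, and 19.0% and 28.6% of the list, near the shares of all genes. Ldhc, the lactate dehydrogenase gene known from testis, had 2.18 and 1.94 CPM in GMP, 206 and 143 in EoP and 52.4 and 83.8 in Eos. It was high in both EoP libraries and intermediate in Eos. Ldhc rose by 6.39 in EoP over GMP (SE 0.37, adjusted p = 2.31e-05 in edgeR) and by 5.03 in Eos over GMP (SE 0.36, adjusted p = 8.53e-06), each with every library left out. Its gene (chr7:46861263-46878142) lies next to Ldha on the same strand without overlap and had no promoter peak in any list. Per length, Ldhc had 63.1 and 47.9 RPKM in EoP, against 151 and 159 for Ldha and 0.770 and 0.640 for Ldhb in the same libraries.

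Adpgk, a glucokinase that uses ADP, had 41.8 and 40.7 CPM in GMP, 111 and 135 in EoP and 447 and 384 in Eos, and rose by 3.33 in Eos over GMP (SE 0.24, adjusted p = 8.1e-06 in edgeR). Emb, for embigin, a partner protein of monocarboxylate transporters, had 392 and 327 CPM in GMP, 65.1 and 63.2 in EoP and 69.3 and 67.4 in Eos, and fell by 2.49 in EoP over GMP (SE 0.22, adjusted p = 0.000111). Pgam2, the muscle phosphoglycerate mutase, reached 14.8 and 26.2 CPM in Eos, against 1.82 and 1.04 in GMP (3.81, SE 0.51, adjusted p = 0.00031). These changes stayed with each library left out.

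Of 17 glycogen genes tested, 3 rose and 1 fell in EoP over GMP, 4 rose and 0 fell in Eos over EoP, and 6 rose and 1 fell in Eos over GMP. The rises are 17.6%, 23.5% and 35.3% of the list, beside 9.49%, 19.1% and 22.7% of all genes. For that 0, edgeR gave 2 genes at an unadjusted p under 0.05, and DESeq2 and limma-voom called 0. Pygl, the liver-type glycogen phosphorylase, had 76.5 and 71.4 CPM in GMP, 195 and 183 in EoP and 826 and 1373 in Eos. Pygl rose by 2.54 in Eos over EoP (SE 0.29, adjusted p = 0.000215 in edgeR) and by 3.89 in Eos over GMP (SE 0.31, adjusted p = 1.39e-05). Gbe1, the branching enzyme, rose by 1.21 in Eos over EoP and Ugp2, which makes UDP-glucose, by 1.12, both with each library left out. The genes that rose include enzymes of both breakdown and synthesis. Of 6 gluconeogenesis genes tested, 1 fell in EoP over GMP, 1 rose and 1 fell in Eos over EoP, and 1 fell in Eos over GMP. Fbp1, for fructose 1,6-bisphosphatase, had 24.5 and 21.2 CPM in GMP, 1.89 and 2.06 in EoP and 19.7 and 8.42 in Eos. Like Hk3 and Ldhb it was lowest in EoP, by 3.52 below GMP on the log2 scale (log2 fold change −3.52, SE 0.47, adjusted p = 0.00111).

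Of 16 citric acid cycle genes, 0 passed in either direction in EoP over GMP by edgeR, where their median log2 fold change was −0.21. At an unadjusted p under 0.05, 0 were higher and 4 lower, and DESeq2 called 3 and limma-voom 2 lower. In Eos over EoP 1 rose and 5 fell, and in Eos over GMP 1 rose and 8 fell. The falls in Eos are 31.2% and 50% of the list, beside 17.7% and 31.8% of all genes. Fh1, for fumarase, had 77.6 and 85.1 CPM in GMP, 56.0 and 54.8 in EoP and 23.7 and 15.6 in Eos and fell by 2.05 in Eos over GMP (SE 0.26, adjusted p = 0.000208 in edgeR), and Suclg2, a succinyl-CoA ligase subunit, fell by 2.35 (SE 0.37, adjusted p = 0.000853). Mdh2, for mitochondrial malate dehydrogenase, rose instead, with 703 and 702 CPM in Eos, against 304 and 255 in EoP (1.33, SE 0.23, adjusted p = 0.00187). For the entry of pyruvate into mitochondria, 1 of 11 genes fell in EoP over GMP, and 2 rose and 4 fell in Eos over EoP (18.2% and 36.4%, beside 19.1% and 17.7% of all genes). The falls included Pdhx, a structural part of pyruvate dehydrogenase (−1.37, adjusted p = 0.0105), and the kinase gene Pdk3 (−1.27, adjusted p = 0.00925), while Pdk2 rose (1.19, adjusted p = 0.0292). The call of Pdhx was lost without EoP replicate 2 (adjusted p = 0.0882), that of Pdk3 without EoP replicate 1 (0.0596), and that of Pdk2 without either EoP library or Eos replicate 2 (0.105 to 0.13).

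Regulators and NADPH users gave mixed counts. Of 18 genes of hypoxia and glucose sensing, 1 rose and 2 fell in EoP over GMP, 3 rose in Eos over EoP, and 8 rose and 3 fell in Eos over GMP, which is 44.4% and 16.7% beside 22.7% and 31.8% of all genes. Txnip, a glucose-induced inhibitor of glucose uptake, had 42.6 and 51.5 CPM in GMP, 292 and 94.0 in EoP and 582 and 866 in Eos and rose by 3.94 in Eos over GMP (SE 0.49, adjusted p = 0.000207 in edgeR). Of 15 other hypoxia response genes, 2 fell in EoP over GMP, 4 rose and 2 fell in Eos over EoP, and 5 rose and 6 fell in Eos over GMP (33.3% and 40%, beside the same shares of all genes). Ak4, a mitochondrial adenylate kinase, fell by 3.02 in Eos over GMP, and Kdm3a, a histone demethylase, rose by 1.81 (adjusted p = 0.000642 and 0.000929). Of 17 NADPH and redox enzymes, 1 rose and 1 fell in EoP over GMP, 4 rose and 4 fell in Eos over EoP, and 3 rose and 4 fell in Eos over GMP, where 17.6% rose and 23.5% fell. Nadk, which makes NADP from NAD, had 204 and 239 CPM in Eos, against 72.1 and 70.8 in EoP (1.63, SE 0.21, adjusted p = 0.000431), and Prdx1, a peroxide-removing enzyme, had 39.9 and 24.3 CPM in Eos, against 92.1 and 87.1 in EoP (−1.48, SE 0.26, adjusted p = 0.00217).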

How the data were processed

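The 34 members, the gene lists and the rule for naming genes were chosen with earlier results of these data known. For each comparison the members given in full are those called with libraries that do not overlap, up to 12 by absolute log2 fold change, plus the leading isozyme of a family, and up to 4 called genes of each list, of which 1 is left out here. The deposited RNA files hold the authors' estimated count (a whole number) and RPKM for each RefSeq transcript. The deposited H3K4me3 files give each peak's pileup signal, −log10 p-value and q-value, fold enrichment and length, per the file headers. They are the authors' values, and none was tested between lists. Lengths, and for Slc2a3 fold enrichment, are set side by side across lists only as description. The median peak length was 343 bases in the GMP list, 405 in the EoP list and 190 in the Eos list. STAR 2.4.0c, Bowtie 1.0.0 and mm10 are in the submitters' processing notes, with no role for either tool. The sources used here name no counter, strand setting or peak caller, and the read depth of the H3K4me3 libraries is unknown. Estimated counts were summed per gene symbol and tested with edgeR 4.0.16 in R 4.3.3 (TMM factors, default filter, 1 fit of 6 libraries by cell type, Benjamini-Hochberg over 14324 genes), which was checked on simulated counts. Alternatives used DESeq2 1.42.0, limma 3.58.1, other scalings and filters, a minimum 2-fold change and each library left out. A promoter peak is one that the files annotate to a gene's promoter.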

Additional observations from a re-analysis of the deposited data

How the results depend on the processing

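None of the 41 called member results changed sign in any of the 731 alternative values computed for them; 616 stayed past the threshold and 115 did not. Scaling moved the median log2 fold change of all genes by −0.18 (upper quartile) and −0.46 (library size alone) in EoP over GMP, by 0.11 (DESeq2 size factors) and −0.12 (library size alone) in Eos over EoP, and by −0.23 and −0.58 (upper quartile, library size alone) in Eos over GMP. Members higher in EoP than in GMP numbered 4, but 1 with library size alone, 8 with limma on log2(RPKM + 0.5), 1 with a 2-fold minimum and 7 with the compared groups alone. Members lower there numbered 5, but 9 with library size alone, 3 with limma on RPKM and 3 with a 2-fold minimum. Members higher in Eos than in EoP numbered 8, but 4 with a 2-fold minimum. Members lower there numbered 3, but 1 with DESeq2 size factors, 9 with limma on RPKM, 1 with the replicate block, 0 with a 2-fold minimum and 1 with the compared groups alone. Of all genes, 2733 were higher and 2540 lower in Eos than in EoP, but 1160 and 489 with a 2-fold minimum. With limma on RPKM they were 1437 and 4308 of 9938 genes. They were 2496 and 2467 with the replicate block, and with the compared groups alone 2508 and 1971 of 11862 genes. Members higher in Eos than in GMP numbered 11, but 6 with library size alone and 5 with a 2-fold minimum, and those lower numbered 10, but 2 with a 2-fold minimum. Of all genes, 3253 were higher and 4557 lower in Eos than in GMP. Those were 2019 and 6776 with library size alone, and 1717 and 1980 with a 2-fold minimum. With each library left out, the higher and lower members ranged from 0 to 7 and 2 to 7 in EoP over GMP, 6 to 10 and 0 to 7 in Eos over EoP, and 8 to 11 and 2 to 10 in Eos over GMP; the cause was not tested. The number of all genes called also depended on the library left out. A lone library left in a cell type was assumed to vary like the others. Samples with the same replicate number did not deviate together (correlations −0.0995, −0.0849 and 0.0194). Each cell type gives a single difference, so a shared effect that is small or differs between cell types would not show. Whether these samples shared a pool, a sort or a batch cannot be told from these values. The replicate block gave 3 higher and 4 lower in EoP over GMP, 9 and 1 in Eos over EoP, and 11 and 9 in Eos over GMP. Of the 9, 11 and 21 members called, 2, 6 and 9 stayed called with every library left out. With limma on RPKM the median of all genes shifted by 0.27, −0.47 and −0.20. The counts of members with a promoter peak stayed within 26 to 33, 25 to 30 and 26 to 32 in GMP, EoP and Eos when peaks were limited by rank or q or counted within 1000 or 3000 bases. The most abundant isozyme in the 24 pairs of family and cell type was the same for 91.7% in CPM and for 93.8% in single libraries. Depth limits genes such as Eno2, with at most 11 counts in a library, and Aldoc, Eno3 and Pfkm, with at most 49, 46 and 63.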
